A study of Bos taurus with 21 samples.

Results

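SPP1, which encodes osteopontin, and ABCG2, which encodes a transporter of the milk secreting cell, were followed in the somatic cells of milk from 21 Holstein cows. Both were taken by their gene symbols, so the members were 2 of the 13570 gene rows of the count tables. SPP1 had been chosen with its level in view, as the most highly counted gene of several cows, and its levels are therefore a description without a test. It was selected on its rank by count in single cows, and no value is stated for the choice of ABCG2, which was taken by name. The cows were untreated lactating animals of the Holstein strain. The labels divided them by milk yield into a high group (HY, 9 cows) and a low group (LY, 12 cows). HY cows were of parity 2 to 4 and were sampled on days 41 to 268 of lactation. LY cows were also of parity 2 to 4 and were sampled on days 52 to 270. Each cow also had a value for milk yield, milk fat, milk protein and milk solids, which are breeding values of no stated unit. HY cows had milk_yield values from 181 to 468 and LY cows from -404 to 86.9. Each cow gave 1 library, and the cells were pelleted from whole milk without sorting. The RNA of a library was therefore a mixture of shed epithelial cells and leukocytes, in which fewer cells of a type and less RNA per cell cannot be told apart.

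Osteopontin is a secreted, heavily phosphorylated glycoprotein that is abundant in milk. It is made by mammary epithelium, and also by activated macrophages and T cells. It binds integrins and CD44 on other cells and is cut by thrombin and by matrix metalloproteinases. ABCG2, also called breast cancer resistance protein, is a half-transporter that works as a homodimer in the apical membrane. In the lactating mammary gland it moves riboflavin, urate and many drugs and toxins into milk. In a milk cell sample, SPP1 can thus come from several cell types, while ABCG2 is best known there from the secretory epithelium.

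Between 7878557 and 28541904 counts fell on genes in each cow. The libraries differed most in the transcripts of the milk secretion genes, a list of caseins, whey proteins and milk fat enzymes. These took from 0.320% of the counts in HY cow 7 (exact 95% interval 0.317 to 0.324%) to 61.8% in HY cow 8 (61.7 to 61.8%). HY cows 8 and 9 had the lowest TMM factors, 0.46 and 0.498, where TMM is the library scaling of edgeR that is based on the bulk of the genes. Levels are given below as TMM-scaled CPM (counts divided by the library size after its TMM adjustment), which compare cows and are not corrected for gene length. They do not add to a fixed total and are not shares of a library. In the highest HY cow the milk secretion list alone summed to 1342135 CPM. Without TMM the median of all genes was lower in HY than in LY by 0.25 on the log2 scale, while with TMM the median difference was -0.005. A mapping rate stated by the study divided the cows into 16 of a lower and 5 of a higher class, and the latter were 1 HY and 4 LY cows. The defining markers of epithelium, macrophages and T cells were all counted. KRT19 was at 6.61 to 2047 CPM, EPCAM at 0.735 to 149 CPM, CD68 at 774 to 3415 CPM, CD14 at 108 to 1247 CPM and CD3E at 18.4 to 349 CPM.

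SPP1 had the highest mean log2 level of the 9628 genes with a mean of at least 10 counts. It was the gene of highest count in 8 cows, 2 of HY and 6 of LY, and held places 2 to 4 in 7 more. By mapping class, these 8 were 4 of the 5 higher and 4 of the 16 lower cows. Since 4 of the 5 higher class cows were LY, group and class cannot be told apart in this split. Its lowest place was 17, in LY cow 12. In the other cows the first place was held by CSN2 in 6, CSN1S1 in 3, CTSB in 2, and IL1RN and PAEP in 1 each. Among the counts of a cow, SPP1 made up from 0.626% in LY cow 12 (exact 95% interval 0.623 to 0.629%) to 7.36% in LY cow 4 (7.35 to 7.38%), and the intervals cover counting error only.

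In HY, SPP1 was lowest at 13841 CPM in HY cow 5, had a median of 28158 CPM and was highest at 78969 CPM in HY cow 6. In LY it was lowest at 6335 CPM in LY cow 12, had a median of 37545 CPM and was highest at 67251 CPM in LY cow 4. The ranges of the groups overlapped from 13841 to 67251 CPM. Over all cows the highest level was 12.5-fold the lowest. Which cow is highest depends on the scaling, since SPP1 took 5.91% of the counts of HY cow 6 and 7.36% of those of LY cow 4. The SD of its log2 level was 0.91, at or above that of 68.9% of genes, where the median gene had 0.71. Across cows SPP1 was thus high in every library, and it varied only somewhat more than the middle gene.

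**Figure D1:**
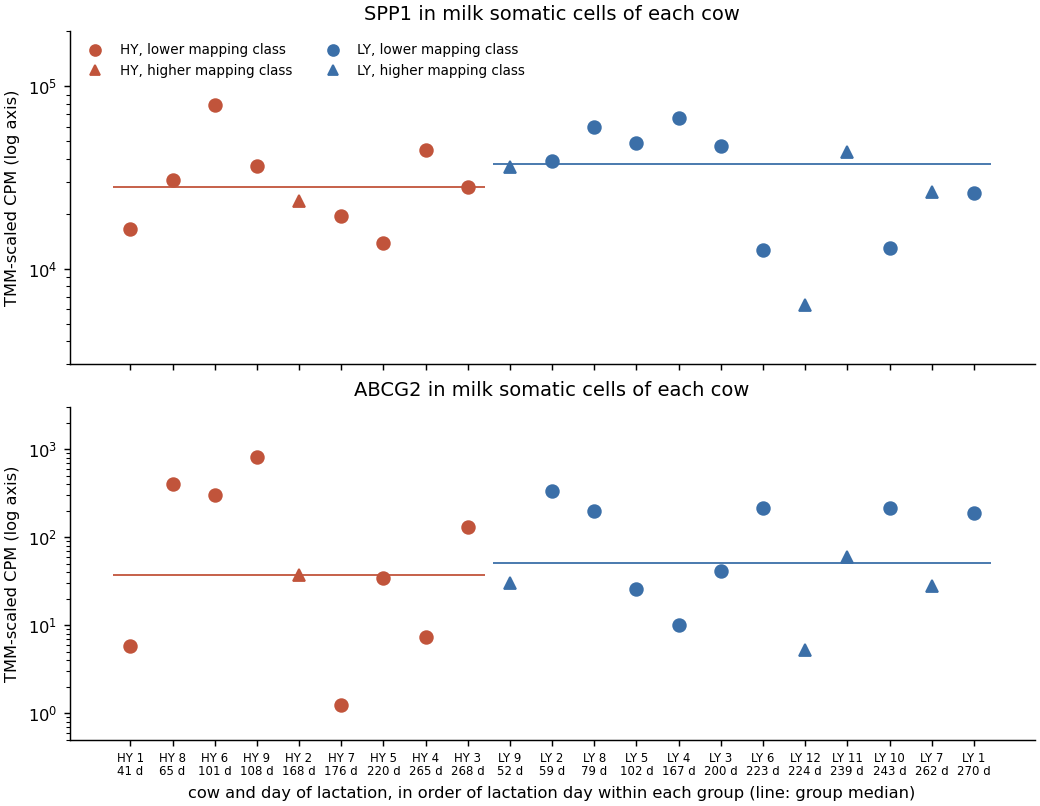
TMM-scaled CPM of SPP1 (upper) and ABCG2 (lower) in each of the 21 cows, on log axes, with cows ordered by day of lactation within HY (red) and LY (blue). Triangles are the 5 cows of the higher mapping class and lines are group medians. SPP1 runs from 6335 to 78969 CPM and ABCG2 from 1.25 to 824 CPM, with HY and LY overlapping in both.

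ABCG2 was far lower and far more variable. Its counts ran from 10 in HY cow 7 to 4765 in HY cow 8. In HY it was lowest at 1.25 CPM in HY cow 7, had a median of 37.1 CPM and was highest at 824 CPM in HY cow 9. In LY it was lowest at 5.3 CPM in LY cow 12, had a median of 50.3 CPM and was highest at 331 CPM in LY cow 2. The range of LY lay inside that of HY. By mapping class, ABCG2 was at 5.3 to 58.9 CPM in the higher class, with a median of 30.5 CPM. In the lower class it was at 1.25 to 824 CPM, with a median of 160 CPM, and this difference was not tested. The highest level was 658-fold the lowest, or 323-fold when CPM was taken of the total counts without TMM. The log2 SD was 2.43, at or above that of 99.5% of genes. Among the genes of a cow, ABCG2 held places from 154 in HY cow 9 to 8542 in HY cow 7. In the latter the 10 counts gave a share of 0.000127% with an exact 95% interval of 6.09e-05 to 0.000233%, so its lowest level is the least precise.

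The levels were also laid out by lactation stage. SPP1 had a median of 36090 CPM in the 5 cows up to day 80 and 48569 CPM in the 3 cows after that and up to day 160. It was 35300 CPM in the 4 cows after day 160 and up to day 210, and 25987 CPM in the 9 cows sampled later. The stages overlapped, since the last stage alone ran from 6335 to 44469 CPM. ABCG2 had medians of 197, 299, 23.6 and 58.9 CPM in the same order. In the 4 cows after day 160 and up to day 210 it stayed between 1.25 and 41.8 CPM, while the highest cow of each other stage was at 215 CPM or more. The spread within a stage was wide, from 5.78 to 405 CPM up to day 80 and from 5.3 to 215 CPM after day 210.

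The comparison of HY with LY asked whether either gene followed the yield group. In edgeR's quasi-likelihood test over 9435 genes, the log2 ratio of HY to LY was -0.13 for SPP1, with an SE of 0.42 (p = 0.764, and 1.0 after Benjamini-Hochberg adjustment). With 1 cow left out at a time this ratio ran from -0.42 (without HY cow 6) to -0.0046 (without LY cow 4). For ABCG2 it was 0.79, with an SE of 0.84 (p = 0.356, and again 1.0 after adjustment). Neither passed, and at these standard errors a change of 1 log2 unit in ABCG2 was not detectable. No gene was called (0.0% of those tested), and 162 genes (1.72%) had an unadjusted p under 0.05. DESeq2 also called 0 genes, with 349 under that unadjusted p. On the mean of log2(CPM + 0.25) the difference in ABCG2 had the other sign, with 5.56 ± 3.09 (SD) in the 9 HY cows against 5.89 ± 1.92 (SD) in the 12 LY cows (exact two-sided permutation p = 0.77). The edgeR fold compares means of counts, to which HY cow 9 at 824 CPM contributes most, and without that cow it was 0.03. For SPP1 these means were 14.79 ± 0.77 (SD) in HY and 14.84 ± 1.04 (SD) in LY (exact two-sided permutation p = 0.903 over 293930 assignments).

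Cows of parity 3 or 4 (7 cows) were compared with cows of parity 2 (14 cows). SPP1 was at 13018 to 43400 CPM in the former, with a median of 25987 CPM, and at 6335 to 78969 CPM in the latter, with a median of 36228 CPM. The log2 fold change of the later parities was -0.48 (SE 0.44, p = 0.288, adjusted p = 1.0 by edgeR's quasi-likelihood test). ABCG2 had medians of 131 CPM in the later parities and 32.5 CPM in parity 2, with ranges of 5.78 to 331 CPM and 1.25 to 824 CPM. Its edgeR fold change was -0.13 on the log2 scale (SE 0.91, p = 0.885), and on mean log2 levels the later parities were higher by 0.90 (exact two-sided permutation p = 0.435). The 2 scales again gave opposite signs and neither difference exceeded the spread between cows. No gene was called here either (0.0%), and 389 genes (4.05%) had an unadjusted p under 0.05.

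Lactation period was the measure with most signal among all genes, since 2509 of 12333 genes (20.3%) had an unadjusted p under 0.05 in a regression of days on log2(CPM + 0.25). None was called after adjustment (0.0%). Osteopontin gave Pearson r = -0.33 with lactation days (permutation p = 0.142) and Spearman rho = -0.31 (permutation p = 0.179). After adjustment over the 12333 genes of the linear regressions its p was 0.383, and adjusted over the 5 measures the permutation p of r was 0.489. Without the 2 cows of most distant SPP1 level r was -0.25, and within the lower mapping class it was -0.33. ABCG2 gave r = -0.16 (permutation p = 0.483) and rho = -0.12 (permutation p = 0.59), with r = -0.12 without 2 cows and -0.13 within the lower mapping class. The slope against lactation was compared between HY and LY with an interaction term. Per 100 days the slopes differed by 0.41 log2 units for SPP1 (SE 0.54, p = 0.45) and by -1.21 for ABCG2 (SE 1.05, p = 0.264), with adjusted p = 1 for both in edgeR's quasi-likelihood test. With 1 cow left out at a time the difference ran from 0.16 to 0.69 for SPP1, and for ABCG2 from -2.75 (without HY cow 3, unadjusted p = 0.0538 in that test) to -0.77 (without HY cow 9). This test called no gene (0.0%), with 133 genes (1.33%) at an unadjusted p under 0.05, and DESeq2 called 1.

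**Figure D2:**
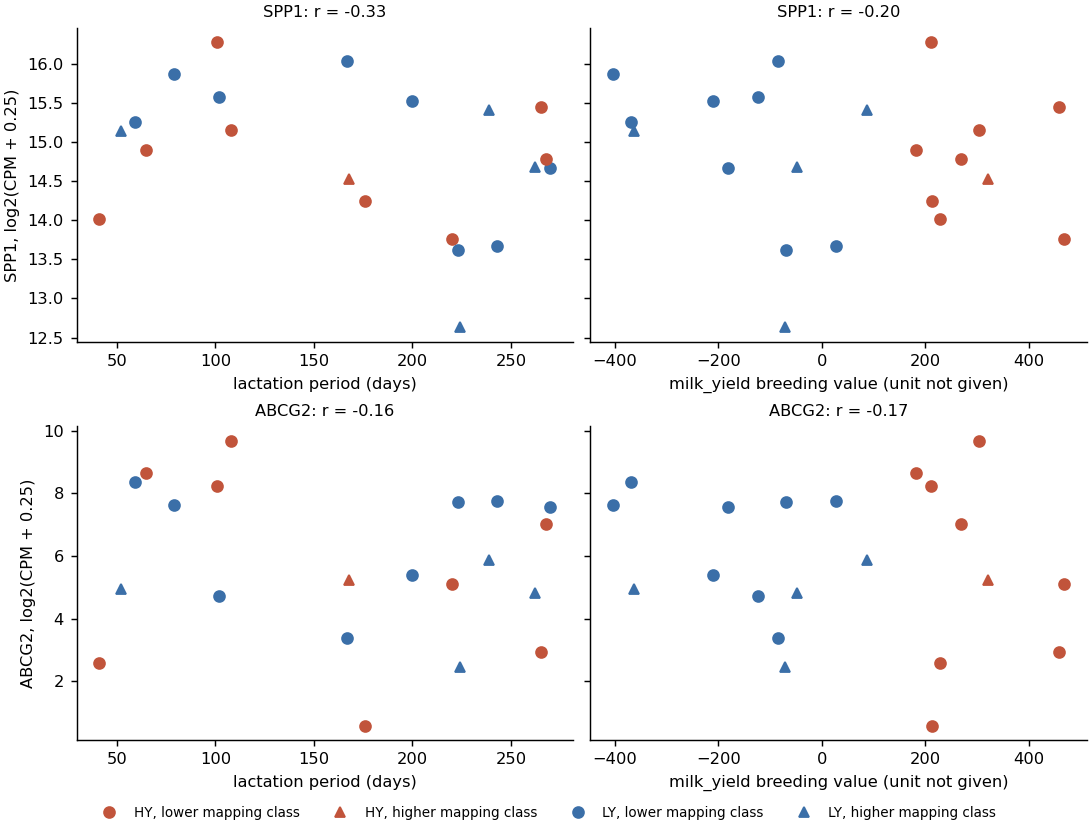
log2(CPM + 0.25) of SPP1 (upper row) and ABCG2 (lower row) against days of lactation (left) and the milk_yield breeding value, which has no stated unit (right). Each point is 1 cow, red for HY and blue for LY, with triangles for the higher mapping class. The clouds are broad, with r = -0.33 and -0.20 for SPP1 and -0.16 and -0.17 for ABCG2.

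Against the breeding values, SPP1 gave r = -0.20 for milk_yield, -0.23 for milk_fat, -0.24 for milk_protein and -0.07 for milk_solid. Its rho values were -0.29, -0.27, -0.28 and -0.10, and the permutation p of r ran from 0.291 to 0.763. Without the 2 cows of most distant level, r was -0.40 for milk_yield, -0.42 for milk_fat, -0.40 for milk_protein and -0.22 for milk_solid. Within the lower mapping class these were -0.30, -0.26, -0.32 and -0.11. ABCG2 gave r = -0.17, -0.14, -0.15 and -0.09 in the same order, with rho of -0.11, -0.03, -0.10 and 0.06 and permutation p of r from 0.472 to 0.705. Its r was -0.23, -0.07, -0.15 and -0.12 without the 2 cows, and -0.26, -0.20, -0.24 and -0.17 within the lower mapping class. Neither gene was called for any measure, as no gene was (0.0% for each). The share of all genes with an unadjusted p under 0.05 was 2.49% for milk_yield, 2.3% for milk_fat, 2.3% for milk_protein and 1.65% for milk_solid. No relation of either gene to a breeding value was detected with 21 cows.

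No relation between SPP1 and ABCG2 was detected. Over the 21 cows r was 0.25 (permutation p = 0.279) and rho was 0.17 (permutation p = 0.454). With the 2 cows of most distant level left out r was 0.007, and within the lower mapping class it was 0.09. HY cow 7 and LY cow 12, with ABCG2 at 1.25 and 5.3 CPM, had SPP1 at 19447 and 6335 CPM. LY cow 4, in contrast, had the second highest SPP1 level and an ABCG2 level of 10.1 CPM.

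The levels were then set beside marker lists of 7 kinds of cells or functions, each summarised per cow as the mean log2(CPM + 0.25) of its genes. ABCG2 followed the milk secretion list closely, with r = 0.97 and rho = 0.99 (permutation p = 1e-05 for each, the smallest that 100000 resamples can give, and 7e-05 for r when adjusted over the 7 lists). It was 0.97 without the 2 cows of most distant level, 0.98 within the lower mapping class, 0.98 within HY and 0.97 within LY. Against the list of epithelial structure genes, keratins, claudins and mucins, r was 0.85 and rho 0.86 (permutation p = 2e-05 and 1e-05, adjusted 7e-05 for r). The milk secretion mean accounted for 94.95% of the variance of ABCG2. A rise of 1 log2 unit of the list went with 1.25 log2 units of ABCG2, and the residual SD was 0.56. ABCG2 therefore ranked the cows almost as the milk protein genes did.

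**Figure D3:**
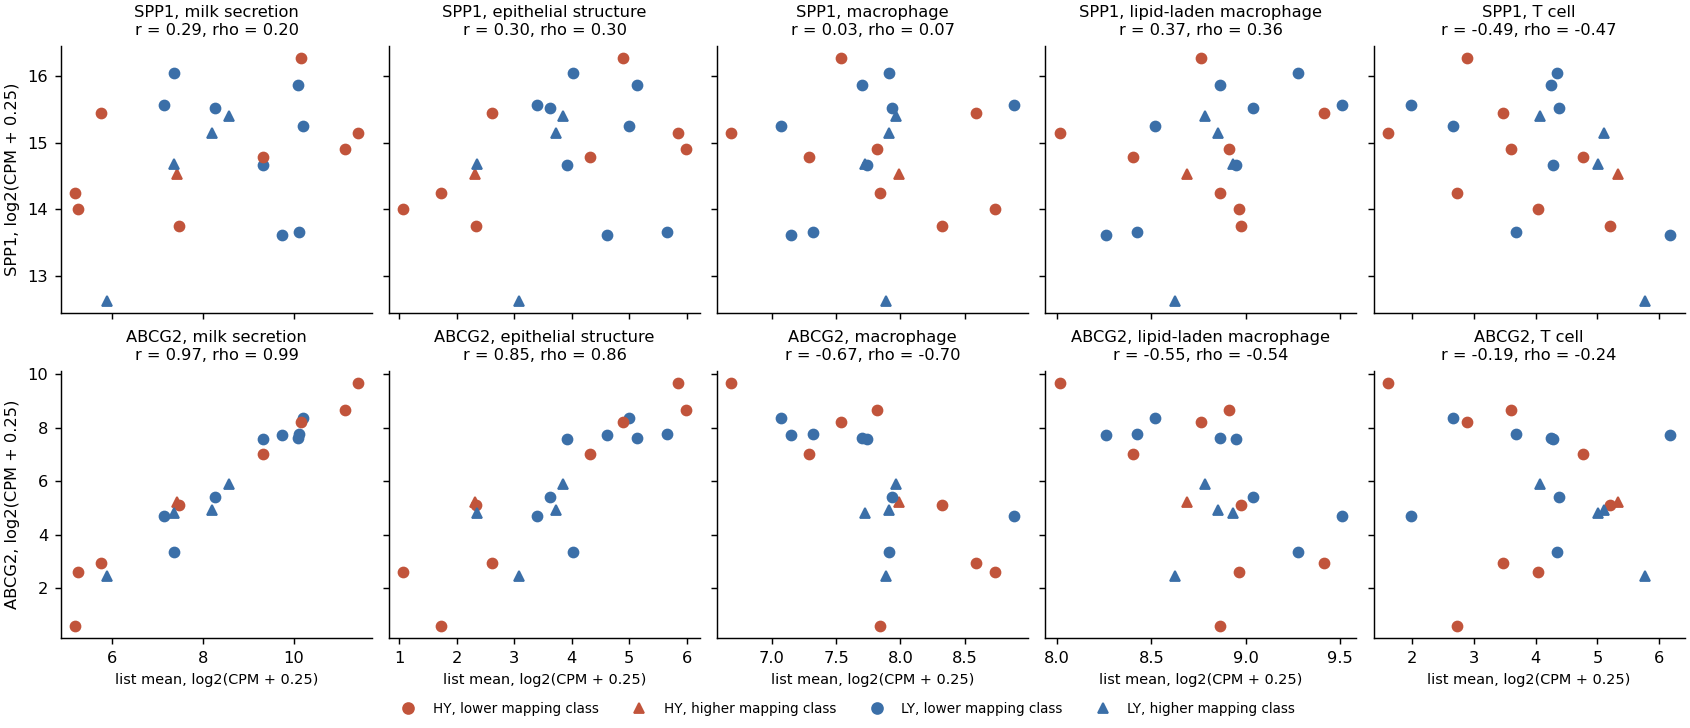
log2(CPM + 0.25) of SPP1 (upper row) and ABCG2 (lower row) against the mean log2(CPM + 0.25) of 5 marker lists, 1 point per cow, red for HY and blue for LY, triangles for the higher mapping class. ABCG2 lies along a line with the milk secretion list (r = 0.97) and falls with the macrophage list (r = -0.67), while SPP1 is scattered in both (r = 0.29 and 0.03).

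ABCG2 was lower where macrophage genes were higher. Against the macrophage list r was -0.67 and rho -0.70 (permutation p = 0.00077 and 0.00058, adjusted p of r 0.0018). It was -0.71 without the 2 cows, -0.70 within the lower mapping class, -0.71 within HY and -0.62 within LY, where the adjusted permutation p rose to 0.0757 (exact, HY) and 0.0637 (LY). A list of lipid-laden macrophage genes gave r = -0.55 and rho = -0.54 (permutation p = 0.00942 and 0.0139, adjusted p of r 0.0165), with r = -0.52 without the 2 cows and -0.64 within the lower mapping class. Without HY cow 9 it was -0.46, with an adjusted permutation p of 0.0744. B cell genes gave r = -0.49 and rho = -0.50 (permutation p = 0.0219 and 0.0224, adjusted p of r 0.0307), with r = -0.56 without the 2 cows. In the lower mapping class the B cell value was -0.47, and its adjusted permutation p was 0.0873. Leaving out HY cow 1, HY cow 6, HY cow 9 or LY cow 4 also ended the call for B cell genes, with adjusted permutation p of 0.051 to 0.114. The summed B cell level was low, at 4.71 to 365 CPM, with MS4A1 at 0 in some cows. Neutrophil genes (r = -0.39, rho = -0.34, permutation p = 0.0837 and 0.139, -0.14 without the 2 cows) and T cell genes (r = -0.19, rho = -0.24, permutation p = 0.406 and 0.288, -0.22 without the 2 cows) did not pass. Within the lower mapping class these were -0.39 and -0.03. All are levels relative to the rest of a library, so a share that milk secretion transcripts gain is lost by others. With scaling that left out SPP1 and milk secretion genes, the macrophage genes had a median rho of -0.58 with ABCG2. With TMM over all genes it was -0.57. The cause of the macrophage values was not tested.

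No relation of SPP1 to any of the 7 lists passed after adjustment. It gave r = 0.29 and rho = 0.20 with milk secretion (permutation p = 0.205 and 0.384), where r fell to 0.08 without the 2 cows and 0.14 within the lower mapping class. With epithelial structure it gave r = 0.30 and rho = 0.30 (permutation p = 0.192 and 0.181), and 0.23 and 0.26 in the same checks. With macrophage genes r was 0.03 and rho 0.07 (permutation p = 0.903 and 0.756), and 0.11 and 0.05 in the checks. With lipid-laden macrophage genes r was 0.37 and rho 0.36 (permutation p = 0.102 and 0.104), and 0.42 and 0.37 in the checks. The last value differed between the groups in sign, at 0.66 within LY and -0.10 within HY, and that difference was not tested.

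Of the 7 lists, that of T cell genes had the r of largest size with SPP1. It gave r = -0.49 and rho = -0.47 (permutation p = 0.0244 and 0.0331), but the p of r adjusted over the 7 lists was 0.171. It was -0.34 without the 2 cows, -0.42 within the lower mapping class, -0.50 within HY and -0.53 within LY. The T cell mean itself rose with the total counts of a library (r = 0.61, permutation p = 0.00388), while SPP1 had r = -0.36 with total counts (permutation p = 0.115), and the part of depth in this relation was not tested. Without TMM the T cell relation of SPP1 was -0.09. Neutrophil genes gave r = -0.25 (permutation p = 0.267) and B cell genes -0.32 (permutation p = 0.15).

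Whether both genes differed in how they followed a list was tested on the log2 ratio of SPP1 to ABCG2 in each cow, a comparison of slopes to which ABCG2 with its larger SD contributes most. The ratio fell with milk secretion (r = -0.89, permutation p = 1e-05) and epithelial structure (r = -0.76, permutation p = 7e-05), and rose with macrophage (r = 0.70, permutation p = 0.00039) and lipid-laden macrophage genes (r = 0.71, permutation p = 0.00029). All 4 passed adjustment over the 7 lists, and the T cell list did not (r = 0.007, permutation p = 0.975). As a description with no test, chosen after the values were seen, the milk secretion mean alone accounted for 8.36% of the variance of SPP1. Milk secretion and lipid-laden macrophage means entered together accounted for 49.1%, both with positive slopes, and 57.8% with the T cell mean added. The same pair with the general macrophage list gave 20.7%.

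Gene by gene, the relation was tested by regression over the 9627 other genes with a mean of at least 10 counts, adjusted over all of them with the Benjamini-Hochberg method. With ABCG2, 1165 genes were positive (12.1%) and 1416 negative (14.7%). Without TMM the split was 534 positive and 2842 negative, so the balance of directions depends on the scaling. With SPP1, 6 genes were positive (0.0623%) and 1 was negative (0.0104%). These 7 rest on single cows, since 0 genes were called without HY cow 6, without LY cow 12 or within the lower mapping class, and 68 without LY cow 4. Without HY cow 5 the count was 29, without HY cow 3 it was 14, and without LY cow 2 or HY cow 9 it was 11 each. Without TMM, 121 genes were called with SPP1, all positive.

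With ABCG2, where 12.1% of all genes were called positive, 19 of the 25 milk secretion genes measured were. They included the caseins CSN3 (rho = 0.98) and CSN2 (rho = 0.97), LALBA, the whey protein that turns galactosyltransferase towards lactose (rho = 0.98), and GPAM, the first acyltransferase of triacylglycerol synthesis (rho = 0.98). FABP3, a fatty acid carrier of mammary epithelium, also had rho = 0.98. The range of these genes was wide, from 110 to 160850 CPM for CSN3 and from 27.1 to 100370 CPM for LALBA. SLC2A1, the glucose transporter GLUT1, was called in the other direction (rho = -0.58, adjusted p = 0.0061 by regression), and B4GALT1, the galactosyltransferase of lactose synthase, gave rho = -0.19 without a call. The acute phase genes SAA3 and M-SAA3.2 gave rho of 0.25 and 0.28 and were not called. The median rho of the list was 0.95, where that of all genes was -0.10. With SPP1 no gene of the list was called, the median rho was 0.19, and the highest was 0.29 for CIDEA, a lipid droplet protein. This median was -0.10 without TMM, where that of all genes with SPP1 was 0.18.

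Of the 21 epithelial structure genes, 17 were called positive with ABCG2 and none negative, where 12.1% and 14.7% of all genes were. MUC15 and ESRP1, a membrane mucin and an epithelial splicing regulator, had rho of 0.98 each, MUC1 0.95 and KRT19 0.88. CDH1, which encodes E-cadherin, gave rho = 0.20 and ST14, a membrane protease, 0.08, neither of them called. With SPP1 no gene was called and the highest rho was 0.54 for the keratin KRT15. The list's median rho with SPP1 was 0.23, and -0.05 without TMM, where the medians of all genes were -0.02 and 0.18.

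Of the 18 macrophage genes, 9 were called negative with ABCG2 and none positive, where 14.7% and 12.1% of all genes were. The lowest rho were those of CSF1R, the receptor of macrophage growth factor (-0.87), and CD14, the lipopolysaccharide co-receptor (-0.81). AIF1 and MSR1, a scavenger receptor, gave rho of 0.03 and 0.01 with ABCG2. AIF1 had the highest rho with SPP1 in the list, 0.61, and MSR1 had 0.52, with 0.54 for the Fc receptor FCGR1A, and none was called (adjusted p of 0.18, 0.196 and 0.164 by regression). The median rho of the list was -0.57 with ABCG2 and 0.06 with SPP1, and the latter was 0.28 without TMM. The median of all genes with SPP1 also moved, from -0.02 to 0.18 without TMM.

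Among the 18 lipid-laden macrophage genes, 6 were called negative and 2 positive with ABCG2, where 14.7% and 12.1% of all genes were, so that the positive count is near the share of all genes. LGALS3, a galectin, was lowest (rho = -0.79), followed by the cathepsins CTSB (-0.68) and CTSD (-0.65), with CD9 at -0.66. The genes called positive were LPL, lipoprotein lipase (rho = 0.60), which mammary epithelium also expresses, and the cathepsin CTSL2 (0.62). With SPP1 the median rho was 0.29, and 0.39 without TMM, where the medians of all genes were -0.02 and 0.18. GPNMB, a glycoprotein of lipid-laden macrophages, had the highest value (rho = 0.66, adjusted p = 0.0758 by regression) and was at 284 to 2462 CPM. FABP4 and FABP5, fatty acid binding proteins, gave 0.56 and 0.49. None of these passed.

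**Figure D4:**
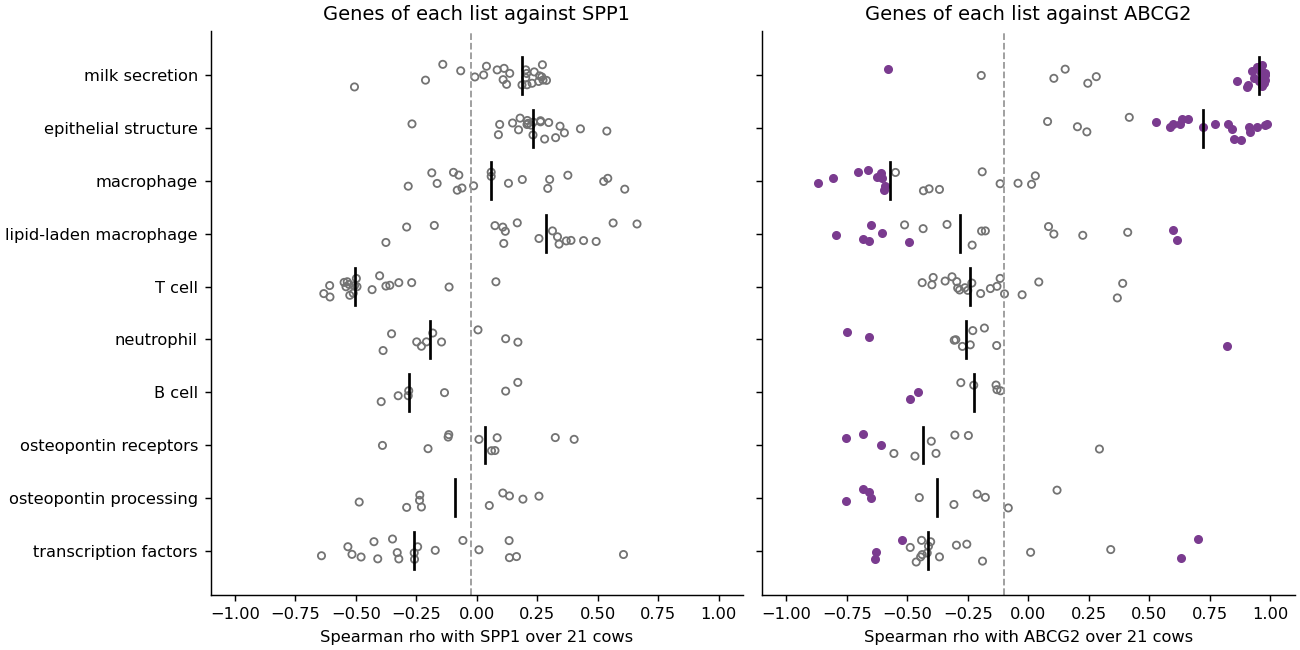
Spearman rho over 21 cows of each gene of 10 lists with SPP1 (left) and ABCG2 (right). Filled points passed the Benjamini-Hochberg adjusted regression over 9627 genes, black bars are list medians and the dashed line is the median of all genes (-0.02 and -0.10). No list gene passed with SPP1, where 0.0623% of all genes passed as positive and 0.0104% as negative, and its T cell median is -0.50. With ABCG2, 19 of 25 milk secretion and 17 of 21 epithelial genes passed as positive, where 12.1% of all genes did.

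The 20 T cell genes had a median rho of -0.50 with SPP1, and 1 of them had rho above 0, where 47.0% of all genes did. Other lists lay on the other side, with 20 of 21 epithelial structure, 20 of 25 milk secretion and 15 of 18 lipid-laden macrophage genes above 0. Such counts were not tested, since genes of a list can vary together. CD28, a co-stimulatory receptor, was lowest at -0.63, followed by CD5 and CD4 at -0.61 each. CD7 was highest at 0.08. None was called (adjusted p of 0.0999 for CD5 by regression). Without TMM the median was -0.11, where that of all genes with SPP1 was 0.18. With ABCG2 the median was -0.24 and none was called. Among 10 neutrophil genes, CATHL5 was called positive with ABCG2 (rho = 0.82) at 0 to 4.52 CPM, and ITGAM (-0.75) and MMP9 (-0.66) were called negative, near the shares of all genes (12.1% positive and 14.7% negative). Of 7 B cell genes, BLK and POU2AF1 were called negative with ABCG2. None of the genes in these lists was called with SPP1.

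The partners of osteopontin were present in the same libraries. CD44, its hyaluronan and osteopontin receptor, was at 538 to 3255 CPM, and the integrin subunit ITGB1 at 25.9 to 392 CPM. ITGB3, which pairs with ITGAV, was at 76.4 to 228 CPM and gave the highest rho with SPP1 in the list (0.40). ITGA4, a leukocyte integrin subunit, gave the lowest (-0.39). Of the 10 receptor genes, none was called with SPP1, where 0.0623% of all genes were called positive and 0.0104% negative. CD44 (rho = -0.61), ITGA5 (-0.75) and ITGA9 (-0.68) were called negative with ABCG2, where 14.7% of all genes were. Of the genes that modify or cut osteopontin, CTSB was at 4200 to 27411 CPM and PLAU, the urokinase protease, at 239 to 5092 CPM. TGM2, a transglutaminase that crosslinks osteopontin, had the lowest rho with SPP1 (-0.49). None of the 10 was called with SPP1, while TGM2, MMP9, CTSB and CTSD were called negative with ABCG2, where 14.7% of all genes were.

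Most relatives of the pair were rare. In the family of small integrin-binding proteins to which SPP1 belongs, MEPE had at most 3 counts and IBSP at most 6 counts in any cow, and DMP1 was at 0.425 to 21.4 CPM with rho = -0.06 to SPP1. In the ABCG family, ABCG5 and ABCG8, the sterol half-transporters, had 0 counts in every cow, and ABCG4 reached 0.229 CPM. ABCG1, which exports cholesterol from macrophages, was at 0 to 107 CPM and was called negative with ABCG2 (rho = -0.49). Of other drug transporters, ABCC1 was also called negative (rho = -0.83), while ABCC3 (-0.30) and ABCC5 (0.53) were not called. Of 7 genes tied to what ABCG2 carries, 1 was called positive and 1 negative, near the shares of all genes (12.1% and 14.7%). FLAD1, FLVCR1, UROD, FECH and SLC29A1 were not called, with rho from -0.29 to 0.40. XDH, the enzyme that makes urate and a milk fat globule protein, also in the milk secretion list, rose with ABCG2 (rho = 0.90). ALAS1, the first enzyme of haem synthesis, fell (rho = -0.85, adjusted p = 1.1e-05 by regression).

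Of 19 transcription factors and signalling genes known at either gene, 2 were called positive with ABCG2 and 3 negative, near the shares of all genes (12.1% and 14.7%). PRLR, the prolactin receptor (rho = 0.70), and ESR1, the oestrogen receptor (0.63), were positive, though both were low, at 0 to 4.38 CPM and 0 to 3.73 CPM. TFEB (-0.63) and VDR, the vitamin D receptor (-0.63), were among the negative genes. With SPP1, PPARG had the highest rho (0.61, adjusted p = 0.169 by regression) at 3.12 to 14.5 CPM, and STAT5B, which carries the prolactin signal, the lowest (-0.64, adjusted p = 0.169). FOS and RUNX1 gave rho of -0.53 and -0.52. None of the 19 was called with SPP1.

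Over all genes, those whose order of cows was most like that of SPP1 were RCAN1, an inhibitor of calcineurin (rho = 0.82), PIGP (0.82), PPID (0.82), AKR1C4 (0.81), CCDC90A (0.78), RAB11A (0.78), TCTEX1D2 (0.77), ENPP1 (0.76), UQCRB (0.75) and COQ7 (0.75). RCAN1 was at 102 to 447 CPM and ENPP1, an ectoenzyme that makes pyrophosphate, at 36.0 to 476 CPM. The 6 genes called positive were RCAN1, PPID, ENPP1, NTN4, CCDC90A and PIGP, with adjusted p from 0.0127 to 0.0268 by regression. At the other end were NUMA1 (-0.80, called, adjusted p = 0.0395 by regression), SMAD7 (-0.77), AGAP2 (-0.75), CCNK (-0.74) and MTMR3 (-0.73). Without TMM the 10 highest kept rho of 0.69 to 0.86, while the 5 lowest moved to rho of -0.11 (CCNK) to -0.37 (NUMA1). No gene was called negative with DESeq2 size factors, with scaling that left out SPP1 and milk secretion genes, or without TMM.

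The genes most like ABCG2 were NOSTRIN, a trafficking factor of nitric oxide synthase (rho = 0.99), MUC15 (0.98), UNC13B (0.98), TPD52L1 (0.98), TOM1L1 (0.98), ESRP1 (0.98), C2H2orf80 (0.98), GPAM (0.98), CSN3 (0.98) and FABP3 (0.98). The least like it were CCNY (-0.96), STK10 (-0.94), PI4KA (-0.93), TBC1D1 (-0.92) and HK1, a hexokinase (-0.92). MUC15 and ESRP1 belong to the epithelial structure list, and GPAM, CSN3 and FABP3 to the milk secretion list.

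SPP1 and ABCG2 are near neighbours on chromosome 6, with LOC132345571, which was not analysed here, and PKD2 between them in the order of protein-coding genes of the RefSeq annotation of ARS-UCD2.0. This is a later assembly than that of the counts, and only the order of genes was used. PKD2, the polycystin channel, was at 1.72 to 16 CPM with rho of 0.28 to SPP1 and 0.15 to ABCG2. On the side of ABCG2, rho with it was 0.57 for PPM1K, a mitochondrial phosphatase, 0.55 for HERC6 and 0.28 for HERC5. On the side of SPP1 the next genes are MEPE and IBSP, followed by LAP3, an aminopeptidase (rho = 0.69 to SPP1 and 0.18 to ABCG2), and MED28 (0.33 and -0.22).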

How the data were processed

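Somatic cells were pelleted from the milk of 21 cows, RNA was extracted with TRIzol and libraries were read as pairs on an Illumina HiSeq. Per the labels and the study's methods, reads were trimmed with Trimmomatic, mapped to bosTau7 with Bowtie2 within TopHat2 and counted on genes with HTSeq. Versions and the strand setting are not given in the sources used here, so reads of overlapping genes cannot be told apart. The authors deposited raw counts per gene symbol, 1 table per cow, with no normalization. The 6 rows that named no gene and 23 symbols turned into dates were left out of the named results, and every cow differed from every other by more than sampling noise (lowest chi-square per degree of freedom 38). Groups came from the labels. Nothing ties replicate numbers across groups.

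Counts were scaled with TMM in edgeR 4.0.16 (R 4.3.3). HY against LY, parity and the slope by group were tested with edgeR's quasi-likelihood test on genes kept by filterByExpr, with Benjamini-Hochberg adjustment and a threshold of 0.05. The measures were regressed on log2(CPM + 0.25) for 12333 genes. Correlations used 100000 resamples (all assignments where a group had fewer than 10 cows), two-sided, and were repeated without the 2 cows farthest from the median level. DESeq2 1.42.0 and the alternatives described at the end were also run. The tests of HY against LY and of lactation period recovered large changes placed in simulated counts, with the same dispersion for every gene. That check does not give their power for genes as variable as ABCG2. The members and gene lists were chosen with earlier results of these data known. Genes named were both members, for each list those of highest and lowest rho (up to 4) and of highest level (up to 3), the 10 highest and 5 lowest rho over all genes with a mean of at least 10 counts, and neighbours on the chromosome. NTN4 was named after its value was seen, as 1 of the 7 genes called with SPP1, and so were a few list genes given for their known role. Gene order came from the RefSeq table of ARS-UCD2.0. P-values measure the spread between these cows. Some genes of the lists are not reported here by name.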

Additional observations from a re-analysis of the deposited data

Results flagged for a closer look

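On the linear scale 2 values stood apart from the rest of their group by Dixon's criterion, out of 24 group and scale combinations examined, where chance sets apart about 1 in 20 groups. SPP1 in HY cow 6 was 78969 CPM, and the median of the 9 HY cows was 28158 CPM. ABCG2 in HY cow 9 was 823.62 CPM, and the HY median was 37.1 CPM. On the log2 scale used for the correlations neither stood apart. The criterion was applied to TMM-scaled values only, and both values depend on that scaling. In CPM of total counts without TMM, SPP1 was 59115 in HY cow 6 and 54194 in HY cow 4, the next highest of HY. ABCG2 was then 410 in HY cow 9 and 224 in HY cow 6, the next highest of HY.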

How the results depend on the processing

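No paired analysis was possible because the labels give no replicate numbers, and those used here follow accession order and tie no cows across groups. Of the alternatives other than leaving out 1 cow, 373 stayed the same, 23 turned sign, 11 lost a call and 3 gained one. For fits that left out 1 cow these were 970, 23, 5 and 3. In each set 7 further values, counts of genes called or median levels, moved. Same meant the same direction and side of the threshold, and for gene counts and median levels only a small change. It includes values that never passed. No relation of either gene to HY or LY, parity, the slope by group or a measure passed under any alternative or fit. Signs of values that never passed did turn. With covariates added these were the parity change of ABCG2 (0.82 on the log2 scale) and milk_solid (SPP1 0.061, ABCG2 0.047). With edgeR in place of regression, ABCG2 changed per SD by 0.12 for milk_yield, 0.42 for milk_fat, 0.22 for milk_protein and 0.15 for milk_solid. Within HY, milk_solid gave 0.16 for SPP1 and 0.13 for ABCG2, and within LY milk_fat gave 0.014 for ABCG2. SPP1 with macrophage genes was -0.0090 with DESeq2 size factors and -0.40 within HY, and with lipid-laden macrophage genes -0.10 within HY. Without TMM, SPP1 gave 0.064 with neutrophil and 0.011 with B cell genes.

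Past the threshold, ABCG2 lost its call within HY and LY for macrophage (-0.71, -0.62), lipid-laden macrophage (-0.62, -0.51) and B cell genes (-0.57, -0.33), where fewer cows entered. The B cell value was -0.47 in the lower mapping class. Without HY cows 8 and 9, an alternative chosen after seeing the data, ABCG2 gave -0.50 for lipid-laden macrophage, -0.38 for B cell and 0.019 for T cell genes. Without TMM, also chosen after seeing the data, its neutrophil value passed (-0.58). The ratio of SPP1 to ABCG2 lost its call within HY for macrophage (0.67) and lipid-laden macrophage genes (0.66). It gave -0.11 for neutrophil genes within LY, and without TMM it passed for neutrophil (0.56) and B cell genes (0.45). For T cell genes it was -0.0069 with a pseudocount of 1, -0.021 with DESeq2 size factors, -0.0027 scaled without SPP1 and milk secretion genes, -0.10 in the lower mapping class, -0.046 within LY and -0.24 without HY cows 8 and 9. The cause of these changes was not tested.

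Genes called with SPP1 numbered 0 in the lower mapping class, 0 within LY and 121 without TMM, of which 6 were among the 7. Those with ABCG2 numbered 1648 in the lower mapping class and 774 within LY. Leaving out 1 cow gave 0 to 68 genes for SPP1. Over the same fits, the parity change of ABCG2 ran from -0.45 to 0.49, milk_fat of ABCG2 from -0.23 to 0.026, milk_solid from -0.14 to 0.046 for SPP1 and -0.19 to 0.014 for ABCG2. SPP1 with macrophage genes ran from -0.066 to 0.12. ABCG2 ran from -0.63 to -0.46 for lipid-laden macrophage, -0.50 to -0.25 for neutrophil and -0.64 to -0.40 for B cell genes. The ratio ran from -0.19 to 0.15 for T cell and 0.27 to 0.49 for B cell genes.

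The 10 counts of ABCG2 in HY cow 7 set the least precise level.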
